A study of Saccharomyces cerevisiae with 24 samples.

Results

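The RNA levels of 50 nuclear genes of yeast respiration were followed in 4 groups of RNA-seq libraries. The genes were taken as a list of standard symbols, chosen by function and with earlier results of these data known, and all 50 were found among the 7036 entries of the count table. They comprised 4 genes of complex II, 9 of complex III, 2 of cytochrome c, 9 of complex IV, 16 of the ATP synthase with its inhibitors, 3 NADH dehydrogenases and 7 of the late tricarboxylic acid (TCA) cycle. They lie on 14 chromosomes, and 0 of them overlapped another gene in the gene table used. That table matched 5956 of the 7036 entries, so overlap with the remaining entries was not checked.

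All libraries came from Saccharomyces cerevisiae strain BY4741, a haploid laboratory strain. The groups were rph1 deletion cells with rapamycin, wild type cells with rapamycin, untreated rph1 deletion cells and untreated wild type cells, with 2 libraries each. Dose and duration of rapamycin are not given in the sources used here. Of 16 further samples of chromatin immunoprecipitation (ChIP) and input, those of FLAG-tagged Rph1 gave the authors' gene lists used here, and those of RNA polymerase II were not used. The tagged samples are labelled as wild type in genotype, so the lists describe cells that have Rph1.

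The respiratory chain of the inner mitochondrial membrane passes electrons from NADH and succinate to oxygen, and the ATP synthase uses the proton gradient so formed. Budding yeast has no proton-pumping complex I, and single-polypeptide NADH dehydrogenases on either face of the membrane feed electrons to ubiquinone instead. Most subunits are encoded in the nucleus, and in cells fermenting glucose their genes are held low, with the Hap2/3/4/5 complex among their activators. Rapamycin inhibits the growth kinase complex TORC1, and Rph1 is a JmjC-domain histone demethylase with zinc fingers that is known as a repressor of transcription.

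Each library held between 18037199 and 24769193 counts. All 50 genes passed the filter on low counts, with 63 to 35740 reads per gene and library. RPH1 (YER169W) had 82 and 45 reads in deletion cells with rapamycin and 1695 and 2107 in wild type cells with rapamycin. It had 30 and 43 reads in untreated deletion cells and 1057 and 1850 in untreated wild type cells, so the deletion was seen in every library labelled with it. Of the marker genes deleted in BY4741, LEU2 had 0 reads in every library and MET17 and URA3 had 0 or 1. HIS3, of which the strain is known to carry a partial deletion, had 1391 to 8201 reads. The mating type a genes STE2, MFA1, MFA2, BAR1 and AGA2 had 1084 or more. Of the genes of the opposite mating type, MF(ALPHA)1 had 3 to 12 reads and MF(ALPHA)2 had 92 to 163, and STE3 had 230 to 360 reads in the deletion libraries and 39 to 95 in the wild type libraries. Ribosomal protein genes took 2.74% to 5.08% of counts in the rapamycin libraries and 19.0% to 21.9% in the untreated libraries. Whether replicates came from separate cultures is not in the labels, so the spread behind the p-values may be technical.

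The 50 genes together took 1.33% and 1.36% of all counts in deletion cells with rapamycin, and 2.31% and 2.196% in wild type cells with rapamycin. In untreated cells they took 0.653% and 0.624% in the deletion and 0.842% and 0.727% in wild type. Libraries were compared as scaled CPM, the usual depth-normalised read count, with library totals scaled by the trimmed mean of M-values (TMM). On this scale the 16 ATP synthase genes summed to 3935 and 3816 CPM in deletion cells with rapamycin and 8312 and 7510.3 in wild type cells with rapamycin. Untreated, they summed to 2527 and 2416 scaled CPM in the deletion and 3804 and 3304 in wild type. The 4 groups did not overlap for this class, and the deletion lay below wild type in both conditions. The late TCA cycle genes summed to 2782 and 2595 scaled CPM in deletion cells with rapamycin, 3647 and 3711 in wild type cells with rapamycin, 1914 and 1774 in untreated deletion cells and 1807 and 1519 in untreated wild type cells. Here the untreated deletion libraries overlapped the untreated wild type libraries.

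**Figure D1:**
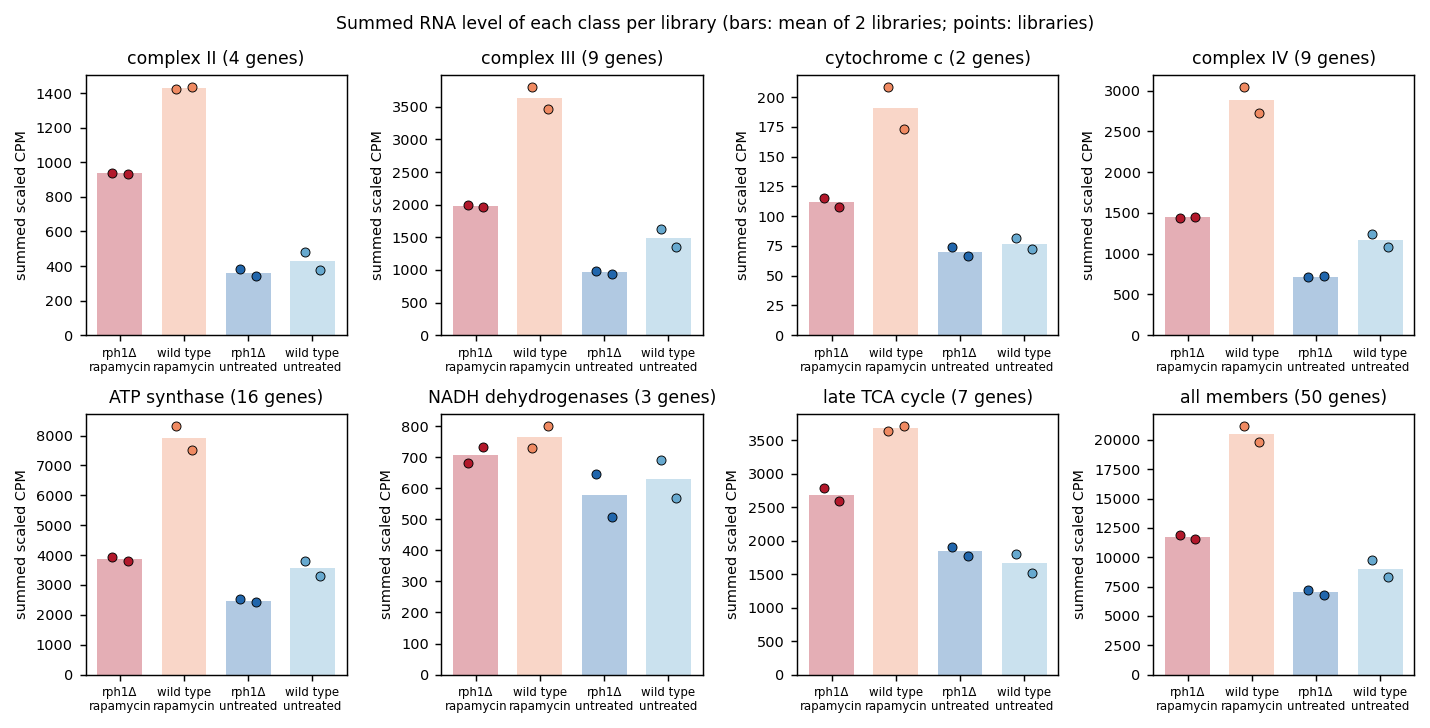
Summed scaled CPM of the genes of each class, and of all 50, in each RNA library. Bars give the mean of 2 libraries and points the libraries. For all 50 genes the deletion with rapamycin summed to 11885 and 11595 and the wild type with rapamycin to 21166 and 19822, against 7247 and 6769.9 in the untreated deletion and 9739 and 8281 in the untreated wild type.

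The first question was how these genes respond to rapamycin in wild type cells. With rapamycin, 49 of the 50 were higher, the exception being the external NADH dehydrogenase gene NDE1, and the median log2 fold change was 1.33, or 2.52-fold. Calls were made with edgeR's quasi-likelihood test at a Benjamini-Hochberg adjusted p under 0.05 over all 6169 genes tested, of which 34.8% were called higher. None was called lower, against 33.9% of all genes, with 0 at an unadjusted p under 0.05 and 0 called by DESeq2. In each of the 49, both rapamycin libraries lay above both untreated libraries. Such separation was not counted over all genes, so this count has no background. The median over all genes tested was 0.02. Median changes by class were 1.76 for complex II, 1.42 for complex III, 1.86 for cytochrome c, 1.32 for complex IV, 1.39 for the ATP synthase, 1.21 for the NADH dehydrogenases and 1.11 for the late TCA cycle. The count was 49 with any 1 of the 8 libraries left out.

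Rapamycin also raised these genes in cells without Rph1, where 46 of 50 were higher with a median log2 fold change of 0.81, or 1.75-fold, beside -0.01 over all genes. Among all genes tested 28.6% were called higher and 28.7% lower. None of the 50 was called lower, where DESeq2 called 0 and an unadjusted p under 0.05 was reached by 0. The 4 that missed the threshold were ATP18, NDE1, LPD1 and MDH1. Median changes by class were 1.40 for complex II, 1.15 for complex III, 1.21 for cytochrome c, 1.04 for complex IV, 0.63 for the ATP synthase, 1.38 for the NADH dehydrogenases and 0.60 for the late TCA cycle. Both genotypes' values stand side by side here, and the test of their difference follows below. CYT1, CYC1, ATP1, ATP2 and KGD2 missed the threshold in at least 1 of the 8 fits that left a library out, with edgeR adjusted p between 0.0544 and 0.217. The count was then 43 and 42 without replicates 1 and 2 of the untreated deletion, and 41 and 43 without replicates 1 and 2 of the deletion with rapamycin.

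With rapamycin present, deletion cells held less RNA of 41 of these 50 genes than wild type cells, and more of none. The median log2 difference was -0.83, or 1.78-fold lower, beside 0.00 over all genes. Of all genes tested 13.5% were called lower and 14.4% higher. For the 0 higher members, edgeR's quasi-likelihood test gave 0 at an unadjusted p under 0.05, and DESeq2 called 0. Lower calls took 15 of 16 ATP synthase genes, 9 of 9 complex III genes, 8 of 9 complex IV genes, 3 of 4 complex II genes, 1 of 2 cytochrome c genes, 5 of 7 late TCA cycle genes and 0 of 3 NADH dehydrogenase genes. For those 3, an unadjusted p under 0.05 was reached by 1 gene, NDE2, and DESeq2 called 0. In 47 of the 50 genes both deletion libraries lay below both wild type libraries, a count likewise without a share over all genes beside it. The 9 not called were SDH1, CYC7, COX5B, STF1, NDE1, NDE2, NDI1, LSC1 and LSC2. Leaving out 1 library gave 33 to 43 calls. SDH2, QCR8, QCR10, CYT1, KGD1, KGD2, LPD1, FUM1 and MDH1 missed the threshold in at least 1 of these fits, with edgeR adjusted p between 0.0502 and 0.232. With the ribosomal protein genes left out of the scaling, 40 were called.

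Untreated deletion cells differed from untreated wild type cells by class. Lower RNA was called for 27 of the 50 genes, namely 8 of 9 in complex IV, 7 of 9 in complex III and 12 of 16 in the ATP synthase. Higher RNA was called for 3, the ATPase inhibitor STF1 and the succinyl-CoA ligase genes LSC1 and LSC2. Over all genes tested 2.53% were called lower and 4.88% higher. The median log2 difference of the 50 was -0.49, or 1.40-fold lower, beside -0.05 over all genes. In complex II, cytochrome c, the NADH dehydrogenases and the late TCA cycle, edgeR's quasi-likelihood test called 0 lower, with 2, 0, 1 and 0 genes at an unadjusted p under 0.05 in that direction, and DESeq2 called 0 in each. All 27 lower genes were also among the 41 lower genes with rapamycin, a comparison made on other libraries in the same fit.

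The untreated counts depended on which libraries were in the fit. Fitted on the 4 untreated libraries alone, edgeR called 1 gene lower, COX5A, and 0 higher. Without replicate 1 or 2 of the untreated deletion, 3 and 5 genes were called lower and 0 higher. Without replicate 1 or 2 of the deletion with rapamycin, 14 genes were called lower in each case and 2 higher. Without replicates 1 and 2 of the untreated wild type the lower calls were 18 and 24, and without either replicate of the wild type with rapamycin they were 19. COX4, COX5A and ATP20 were called lower in all 8 of these fits. The median over the 50 genes lay between -0.61 and -0.36 under all alternatives.

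**Figure D2:**
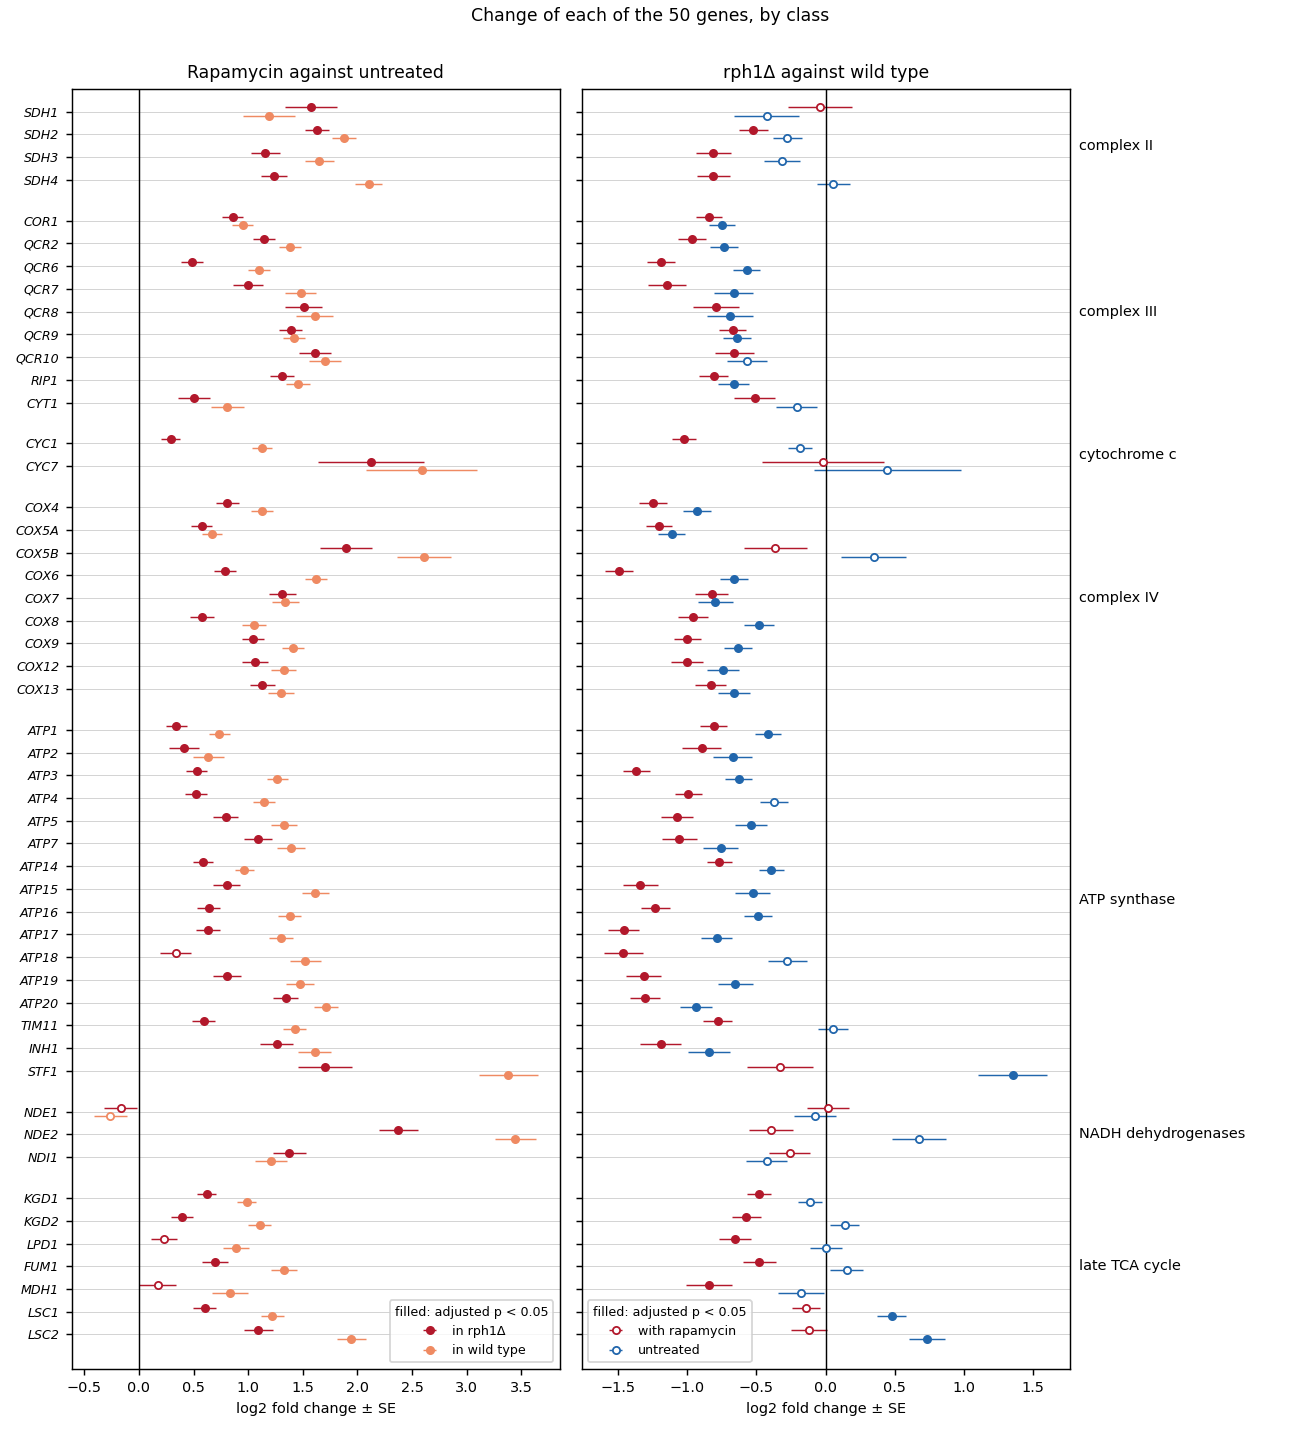
Log2 fold change ± SE of each of the 50 genes, grouped by class, for rapamycin against untreated cells (left) and for the rph1 deletion against wild type (right). Filled points have an edgeR adjusted p under 0.05. On the right, the ATP synthase genes with rapamycin reach -1.46, and the points of the NADH dehydrogenases are unfilled in both conditions.

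The interaction asked whether the rapamycin change differed between genotypes. It was negative and past the threshold for 19 of 50 genes, meaning a smaller rapamycin increase in the deletion, and positive past it for 0. Among all genes tested 6.08% were called negative and 7.04% positive. The median over the 50 genes was -0.47, beside 0.01 over all genes. For the 0 positive members, edgeR's quasi-likelihood test gave 0 at an unadjusted p under 0.05, and DESeq2 called 0. The ATP synthase held 9 of the 19 and the late TCA cycle 5, with 1 each in complex II, complex III, cytochrome c, complex IV and the NADH dehydrogenases. Class medians were -0.64 for the ATP synthase, -0.66 for the late TCA cycle, -0.15 for complex III and -0.32 for complex IV. This count moved with single libraries. It was 25 and 10 without replicates 1 and 2 of the untreated wild type, 4 and 7 without those of the untreated deletion, 6 and 8 without those of the wild type with rapamycin, and 0 and 4 without those of the deletion with rapamycin. With the replicate number as a block it was 27.

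Complex II, succinate dehydrogenase, links the TCA cycle to the chain. SDH4 (YDR178W, chromosome IV, 817950 to 818495, sacCer3), which encodes a membrane anchor subunit, had 213 and 216 scaled CPM in deletion cells with rapamycin and 391 and 362 in wild type cells with rapamycin. It had 95.3 and 87.0 scaled CPM in untreated deletion cells and 96.99 and 78.6 in untreated wild type cells. The untreated genotypes overlapped, and the rapamycin groups did not. The log2 difference of deletion and wild type was -0.81 ± 0.12 with rapamycin (SE, n = 2 per group; edgeR adjusted p = 0.00269) and 0.06 ± 0.12 untreated (edgeR adjusted p = 0.809). The interaction was -0.87 ± 0.17 (edgeR adjusted p = 0.0167). SDH2, the iron-sulfur subunit, had the smallest rapamycin p of the complex, with a log2 change of 1.63 ± 0.11 in the deletion and 1.88 ± 0.11 in wild type. SDH1, the flavoprotein subunit, had 177 and 191 scaled CPM in deletion cells with rapamycin, inside the range of 151 and 227 in wild type cells with rapamycin. Its log2 difference with rapamycin was -0.04 ± 0.23 (edgeR adjusted p = 0.917). How reads that match both SDH1 and its paralog YJL045W were counted is not given in the sources used here.

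Complex III, the cytochrome bc complex, passes electrons to cytochrome c. Its 9 genes rose with rapamycin in both genotypes and were lower in the deletion with rapamycin. QCR6 (YFR033C, chromosome VI, 224326 to 224769), the acidic hinge subunit, had 157 and 161 scaled CPM in deletion cells with rapamycin and 371 and 353 in wild type cells with rapamycin, against 117 and 109.7 in untreated deletion cells and 181 and 157 in untreated wild type cells. The groups did not overlap in either condition. Its log2 difference was -1.19 ± 0.10 with rapamycin (edgeR adjusted p = 0.000613) and -0.57 ± 0.10 untreated (edgeR adjusted p = 0.0168). QCR6 was the 1 gene of the complex with an interaction past the threshold, -0.62 ± 0.14 (edgeR adjusted p = 0.0285). The core subunit gene COR1 (YBL045C) had 366 and 360.2 scaled CPM in deletion cells with rapamycin, 648 and 654 in wild type cells with rapamycin, 202 and 199 in untreated deletion cells and 355 and 319 in untreated wild type cells. Its log2 differences were -0.84 ± 0.09 with rapamycin (edgeR adjusted p = 0.00133) and -0.75 ± 0.09 untreated (edgeR adjusted p = 0.0058), the smallest untreated p of the complex. The interaction of COR1 was -0.09 ± 0.13, with an edgeR adjusted p of 0.688. QCR2, the other core subunit, QCR7, QCR8 and QCR9, small subunits, and RIP1, the Rieske iron-sulfur protein, were lower in both conditions too. QCR10 (-0.57 ± 0.15; edgeR adjusted p = 0.0576) and the cytochrome subunit CYT1 (-0.21 ± 0.15; edgeR adjusted p = 0.419) were not called in untreated cells.

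Cytochrome c, the mobile carrier between complexes III and IV, has a major isoform, CYC1, and a minor one, CYC7, known for expression at low oxygen. CYC1 (YJR048W, chromosome X, 526335 to 526664) had 78.3 and 74.0 scaled CPM in deletion cells with rapamycin and 164 and 145 in wild type cells with rapamycin. Untreated, it had 63.2 and 61.2 scaled CPM in the deletion and 71.8 and 69.8 in wild type. The deletion with rapamycin thus lay just above the untreated libraries, and far below wild type with rapamycin. The rapamycin change was 0.29 ± 0.09 in the deletion (edgeR adjusted p = 0.0231) and 1.13 ± 0.09 in wild type (edgeR adjusted p = 1.5e-05). The interaction was -0.84 ± 0.12 (edgeR adjusted p = 0.00902), the smallest interaction p of the 50 genes. Leaving out any deletion library ended the call of the rapamycin change in the deletion, with edgeR adjusted p up to 0.123. CYC7 had 37.2 and 34.0 scaled CPM in deletion cells with rapamycin, 44.6 and 27.6 in wild type cells with rapamycin, 10.8 and 5.48 in untreated deletion cells and 9.56 and 2.90 in untreated wild type cells. Its replicates differed widely, and the genotypes overlapped in both conditions. CYC7 rose with rapamycin by 2.12 ± 0.48 in the deletion (edgeR adjusted p = 0.00658) and by 2.59 ± 0.51 in wild type (edgeR adjusted p = 0.00218) on the log2 scale.

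Complex IV, cytochrome c oxidase, reduces oxygen. COX6 (YHR051W, chromosome VIII, 209705 to 210151), a nuclear subunit gene, had the largest deficit of the 50 genes in the deletion with rapamycin. It had 148 and 159 scaled CPM in deletion cells with rapamycin and 455 and 408 in wild type cells with rapamycin, against 87.4 and 90.2 in untreated deletion cells and 147 and 134 in untreated wild type cells. Levels of the deletion with rapamycin were thus near those of untreated wild type. The log2 difference was -1.49 ± 0.10 with rapamycin (edgeR adjusted p = 0.000584) and -0.66 ± 0.10 untreated (edgeR adjusted p = 0.0112), and the interaction was -0.83 ± 0.14 (edgeR adjusted p = 0.0118). COX4 (YGL187C), a subunit of the same complex, had 163 and 166 scaled CPM in deletion cells with rapamycin, 404 and 376 in wild type cells with rapamycin, 87.1 and 101 in untreated deletion cells and 183 and 174 in untreated wild type cells. Its log2 differences were -1.25 ± 0.10 with rapamycin (edgeR adjusted p = 0.000613) and -0.93 ± 0.10 untreated (edgeR adjusted p = 0.00386). COX7, COX8, COX9, COX12 and COX13, small subunits, were lower in both conditions, by -0.82 to -1.003 with rapamycin and -0.48 to -0.80 untreated on the log2 scale. The COX7 interaction was -0.03 ± 0.17, with an edgeR adjusted p of 0.94.

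The ATP synthase carries a catalytic head, a central and a peripheral stalk and a membrane ring with small attached subunits. Its 14 subunit genes in the list all rose with rapamycin in wild type and were all lower in the deletion with rapamycin. ATP3 (YBR039W, chromosome II, 315575 to 316510), the gamma subunit of the central stalk, had 304 and 300.4 scaled CPM in deletion cells with rapamycin and 814 and 746 in wild type cells with rapamycin. It had 214 and 205 scaled CPM in untreated deletion cells and 338 and 309.8 in untreated wild type cells. In deletion cells with rapamycin ATP3 stood below both untreated wild type libraries. The log2 difference was -1.37 ± 0.10 with rapamycin (edgeR adjusted p = 0.000584) and -0.63 ± 0.10 untreated (edgeR adjusted p = 0.0122). ATP18 (YML081C-A, chromosome XIII, 103983 to 104162), a small membrane subunit, had 60.6 and 62.7 scaled CPM in deletion cells with rapamycin and 184 and 156 in wild type cells with rapamycin, against 42.0 and 55.7 in untreated deletion cells and 58.1 and 60.2 in untreated wild type cells. Its rapamycin change was 0.34 ± 0.14 in the deletion (edgeR adjusted p = 0.0708) and 1.52 ± 0.14 in wild type (edgeR adjusted p = 3.47e-05), with an interaction of -1.19 ± 0.20 (edgeR adjusted p = 0.0114). ATP17, another membrane subunit, had the largest untreated deficit of those with a called interaction, -0.79 ± 0.11 (edgeR adjusted p = 0.00788).

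The catalytic head subunits ATP1 and ATP2, alpha and beta, had the smallest rapamycin changes of the class in wild type. ATP2 (YJR121W, chromosome X, 647607 to 649142) had 874 and 788 scaled CPM in deletion cells with rapamycin and 1589.5 and 1499 in wild type cells with rapamycin. Untreated, it had 669 and 579.6 scaled CPM in the deletion and 1097 and 891 in wild type. The deletion was below wild type in both conditions, and its level with rapamycin was below that of untreated wild type. The log2 difference of ATP2 was -0.89 ± 0.14 with rapamycin (edgeR adjusted p = 0.00364) and -0.67 ± 0.14 untreated (edgeR adjusted p = 0.0301). TIM11, subunit e of the membrane part, fell short of wild type in the deletion with rapamycin, by -0.78 ± 0.10 (edgeR adjusted p = 0.00218), beside 0.05 ± 0.11 untreated (edgeR adjusted p = 0.792). The interaction of TIM11 was -0.83 ± 0.15 (edgeR adjusted p = 0.0134). In untreated cells ATP20, subunit g, showed the largest deficit of the class, -0.94 ± 0.11 (edgeR adjusted p = 0.0058).

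The inhibitor genes INH1 and STF1, whose small proteins block ATP hydrolysis by the synthase, did not behave alike. STF1 (YDL130W-A, chromosome IV, 229171 to 229431) had 258 and 245 scaled CPM in deletion cells with rapamycin and 336 and 294 in wild type cells with rapamycin. In untreated cells it had 80.9 and 73.4 scaled CPM in the deletion and 39.9 and 21.0 in wild type, with no overlap in either condition. STF1 was higher in the untreated deletion by 1.35 ± 0.25 (edgeR adjusted p = 0.0212), and its difference with rapamycin was -0.33 ± 0.24 (edgeR adjusted p = 0.342). Its interaction, -1.68 ± 0.35 (edgeR adjusted p = 0.0217), was the largest in size of the 50 genes. INH1 (YDL181W) had 75.1 and 76.9 scaled CPM in deletion cells with rapamycin, 186 and 161 in wild type cells with rapamycin, 32.5 and 30.9 in untreated deletion cells and 66.2 and 47.9 in untreated wild type cells. It was lower in the deletion in both conditions, by -1.19 ± 0.15 with rapamycin (edgeR adjusted p = 0.00168) and -0.84 ± 0.15 untreated (edgeR adjusted p = 0.0187).

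The NADH dehydrogenases feed electrons from the matrix (NDI1) and from the cytosol (NDE1, NDE2). NDE1 (YMR145C, chromosome XIII, 554793 to 556475) had 425 and 433 scaled CPM in deletion cells with rapamycin, 416 and 433 in wild type cells with rapamycin, 549.6 and 413 in untreated deletion cells and 554 and 462 in untreated wild type cells. It was the 1 gene of the 50 called in no comparison. NDE2 (YDL085W, chromosome IV, 303211 to 304848) had 55.1 and 55.0 scaled CPM in deletion cells with rapamycin and 62.4 and 82.5 in wild type cells with rapamycin, against 9.95 and 11.3 in untreated deletion cells and 7.70 and 5.75 in untreated wild type cells. All rapamycin libraries lay well above all untreated ones. NDE2 rose with rapamycin by 2.38 ± 0.18 in the deletion (edgeR adjusted p = 2.82e-05) and by 3.44 ± 0.19 in wild type (edgeR adjusted p = 2.7e-06) on the log2 scale, with an interaction of -1.07 ± 0.25 (edgeR adjusted p = 0.0319). NDI1 (YML120C) had 202 and 245 scaled CPM in deletion cells with rapamycin, 251 and 285 in wild type cells with rapamycin, 87.3 and 85.1 in untreated deletion cells and 131 and 101 in untreated wild type cells. Both genotypes rose, and the deletion libraries lay below wild type in each condition without reaching the threshold (edgeR adjusted p = 0.22 with rapamycin and 0.129 untreated).

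The late TCA cycle genes encode 2-oxoglutarate dehydrogenase (KGD1, KGD2, LPD1), succinyl-CoA ligase (LSC1, LSC2), fumarase (FUM1) and mitochondrial malate dehydrogenase (MDH1). LSC2 (YGR244C, chromosome VII, 978036 to 979319) had 485 and 469 scaled CPM in deletion cells with rapamycin and 514 and 521 in wild type cells with rapamycin, against 227 and 220.0 in untreated deletion cells and 153 and 116 in untreated wild type cells. LSC1 (YOR142W, chromosome XV, 593057 to 594046) had 519 and 488 scaled CPM in deletion cells with rapamycin and 545 and 567 in wild type cells with rapamycin, against 336 and 327 in untreated deletion cells and 255 and 221 in untreated wild type cells. Both genes were higher in the untreated deletion, LSC2 by 0.73 ± 0.13 (edgeR adjusted p = 0.0186) and LSC1 by 0.48 ± 0.10 (edgeR adjusted p = 0.0344). With rapamycin their differences were -0.12 ± 0.13 for LSC2 (edgeR adjusted p = 0.53) and -0.14 ± 0.10 for LSC1 (edgeR adjusted p = 0.342). The 3 genes of 2-oxoglutarate dehydrogenase were lower in the deletion with rapamycin, by -0.48 ± 0.09 for KGD1, -0.57 ± 0.10 for KGD2 and -0.66 ± 0.12 for LPD1. LPD1, which also serves pyruvate dehydrogenase, had 517 and 459 scaled CPM in deletion cells with rapamycin and 749.7 and 789.7 in wild type cells with rapamycin, against 433 and 399 in untreated deletion cells and 445 and 386 in untreated wild type cells. Untreated genotypes overlapped for LPD1, and its edgeR adjusted p with rapamycin was 0.00566. MDH1 rose with rapamycin in wild type by 0.83 ± 0.17 (edgeR adjusted p = 0.00243) and changed by 0.17 ± 0.17 in the deletion (edgeR adjusted p = 0.401); its interaction was -0.66 ± 0.23 (edgeR adjusted p = 0.101).

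Levels were compared between genes per kilobase of the annotated gene, including introns. In untreated wild type cells the highest means of scaled CPM per kilobase were those of ATP15, the epsilon subunit of the ATP synthase, at 844 and 738, COX9 at 830.3 and 737, and ATP2 at 714 and 580.1. ATP15 and COX9 overlapped, so their order was not resolved. ATP2 likewise overlapped genes with lower means, such as COX8 at 645 and 535. NDE2 was the lowest of the 50, with 4.70 and 3.51 scaled CPM per kilobase. In deletion cells with rapamycin COX9 (1029 and 1049), STF1 (987 and 939) and ATP15 (970.2 and 944) led on the same scale. COX9 lay above the other two, which overlapped. STF1 ranked 2 of 50 in that group, 9 in wild type cells with rapamycin and 43 in untreated wild type cells.

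Complex IV contains either COX5A or COX5B, of which COX5B is known from low oxygen, and their balance differed between groups. COX5A (YNL052W, chromosome XIV, 531725 to 532186) had 137 and 131 scaled CPM in deletion cells with rapamycin and 322 and 297 in wild type cells with rapamycin, against 88.9 and 91.2 in untreated deletion cells and 205 and 184 in untreated wild type cells. The deletion lay below wild type in both conditions, by -1.21 ± 0.10 with rapamycin (edgeR adjusted p = 0.000613) and -1.11 ± 0.10 untreated (edgeR adjusted p = 0.002). COX5A was the 1 gene called in untreated cells under all 15 alternatives. COX5B (YIL111W, chromosome IX, 155222 to 155765) had 225 and 222 scaled CPM in deletion cells with rapamycin and 294 and 282 in wild type cells with rapamycin, against 64.3 and 55.9 in untreated deletion cells and 61.3 and 33.6 in untreated wild type cells. Its difference between genotypes was -0.36 ± 0.23 with rapamycin (edgeR adjusted p = 0.273) and 0.35 ± 0.24 untreated (edgeR adjusted p = 0.404). Per kilobase, COX5B stood at 140% and 144% of COX5A in deletion cells with rapamycin and at 77.4% and 80.7% in wild type cells with rapamycin. Untreated, it stood at 61.5% and 52.1% in the deletion and 25.4% and 15.5% in wild type. The 4 groups did not overlap in this percentage, and it exceeded 100% in the deletion with rapamycin alone.

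The other pairs gave further balances of scaled CPM per kilobase. STF1 stood at 339% and 315% of INH1 in deletion cells with rapamycin, 179% and 181% in wild type cells with rapamycin, 246% and 235% in untreated deletion cells and 59.6% and 43.4% in untreated wild type cells. CYC7 stood at 45.8% and 44.4% of CYC1 in deletion cells with rapamycin and 26.2% and 18.3% in wild type cells with rapamycin, and at 16.4% and 8.65% in untreated deletion cells and 12.8% and 4.01% in untreated wild type cells. The untreated genotypes overlapped for CYC7. NDE2 stood at 13.3% and 13.03% of NDE1 in deletion cells with rapamycin and 15.4% and 19.6% in wild type cells with rapamycin, and between 1.28% and 2.81% in the untreated libraries. LSC2 stood at 70.9% to 74.0% of LSC1 in all rapamycin libraries, at 52.0% and 51.9% in untreated deletion cells and at 46.2% and 40.5% in untreated wild type cells. These percentages are descriptions, with no test of their own.

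**Figure D3:**
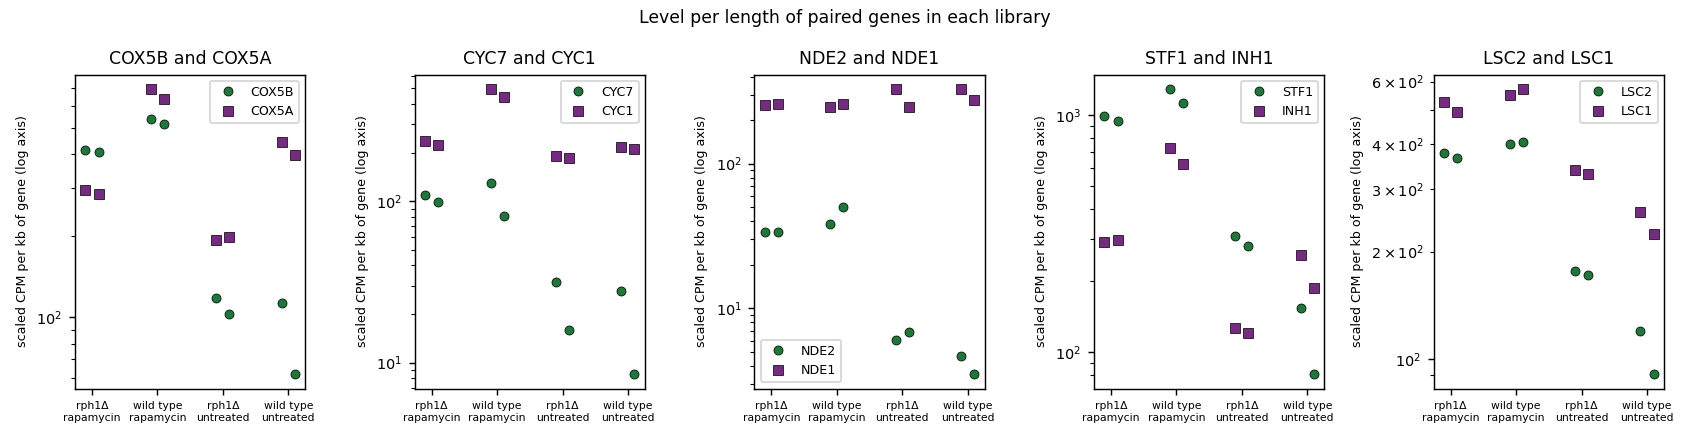
Scaled CPM per kilobase of gene in each library for 5 pairs of related genes, on log axes. The COX5B points lie above the COX5A points in the deletion with rapamycin (140% and 144%) and below them in the other 3 groups.

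Where Rph1 itself was found was asked with the authors' FLAG-Rph1 lists. The authors' deposited table for rapamycin names 19 of the 50 genes (38%), beside 10.4% of all genes tested, and that for untreated cells names 2 (4%), beside 6.89%. In the authors' deposited table for rapamycin the listed genes were 7 of 9 in complex III, 8 of 16 in the ATP synthase, 3 of 9 in complex IV and NDE1, with 0 of 4 in complex II, 0 of 2 in cytochrome c and 0 of 7 in the late TCA cycle. The values are the authors' fold enrichment per gene, with no replicate values, and the coordinates listed are those of the gene rather than of a peak. No test was made on them.

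ATP2 had the highest enrichment of the 50 in the authors' deposited table, 83.6-fold with rapamycin and 13.1-fold untreated. QCR6 followed with 42.9-fold with rapamycin and 9.11-fold untreated in the authors' deposited table. In complex III the authors' deposited table for rapamycin gave 25.9-fold for QCR9, 22.6 for COR1, 17.7 for QCR7, 15.7 for QCR2, 9.86 for QCR8 and 8.73 for QCR10, and RIP1 and CYT1 were not listed. In the ATP synthase the authors' deposited table gave 36.7-fold for ATP14, 35.1 for ATP1, 23.9 for ATP5, 21.4 for ATP7, 21.3 for ATP3, 17.0 for ATP17 and 14.7 for ATP20 with rapamycin. For complex IV the authors' deposited table gave 30.2-fold for COX9, 11.2 for COX5B and 8.80 for COX4, and for NDE1 31.2-fold. The median of the 705 genes in the authors' deposited table for rapamycin was 25.3-fold, and 7 of the 19 reached it. Neither ATP2 nor QCR6 reached the median of the untreated list, 45.0-fold over 466 genes in the authors' deposited table. QCR9, ATP1 and ATP14 each carry the same value as another entry of the list (YGR182C, YBL100C and YLR294C), and 16 genes of the 19 have a value of their own.

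**Figure D4:**
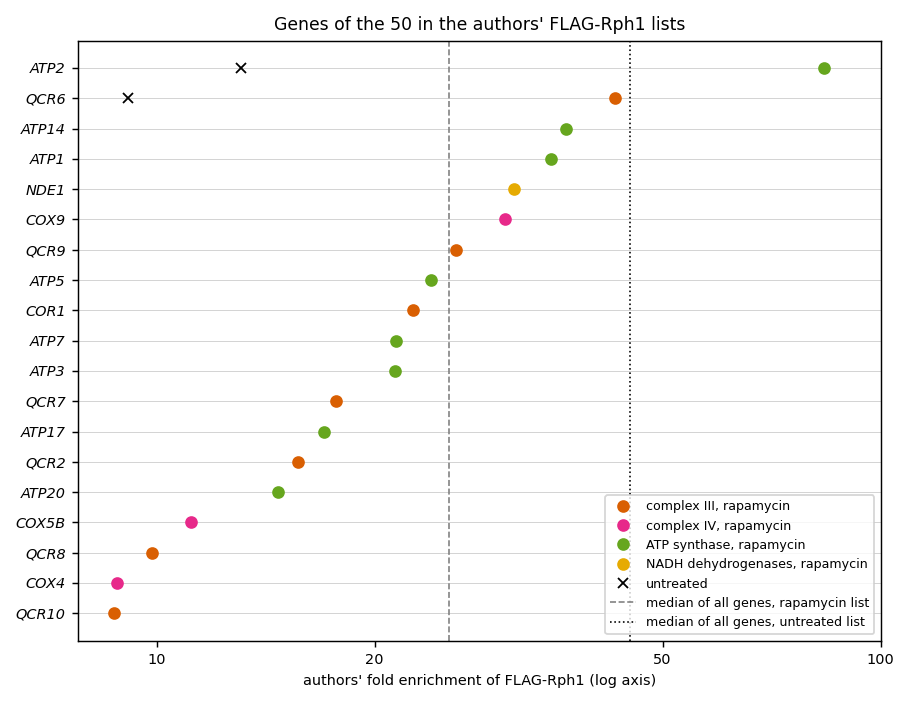
Fold enrichment of FLAG-Rph1, as the authors deposited it, for the 19 genes in the rapamycin list (coloured by class) and the 2 in the untreated list (crosses), on a log axis. The dashed and dotted lines mark the medians of the rapamycin list (25.3) and of the untreated list (45.0). ATP2 stands highest at 83.6.

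Set beside the RNA, listed and unlisted genes of the 50 were both lower in the deletion with rapamycin. Of the 19 genes in the rapamycin list 17 were called lower, with a median log2 difference of -0.97, and of the 31 not in it 24 were called lower, with a median of -0.81. Among all 643 tested genes of that list 179 were called lower and 94 higher, with a median of -0.16. In untreated cells 16 of the 19 were called lower and 0 higher (median -0.64), and 11 of the 31 were called lower and 3 higher (median -0.28). For all 643 tested genes of the rapamycin list, 40 were called lower and 24 higher untreated, with a median of -0.12. Over all genes tested 2.53% were called lower and 4.88% higher. Of the 19 genes, 2 are also in the list for untreated cells. In the ATP synthase, 8 of 8 listed and 7 of 8 unlisted genes were called lower with rapamycin. All 6 unlisted complex IV genes were lower in both conditions, among them COX6 and COX5A. The interaction was called negative for 3 of the 19 and 16 of the 31, beside 6.08% of all genes tested. Among all 643 tested genes of the list it was called negative for 83 and positive for 58. The difference between listed and unlisted genes was not tested. The untreated calls and the interaction calls moved with single libraries, as given above.

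Genes that serve the chain without being part of it were followed in 12 lists of 112 genes, of which 105 were tested. The remaining 7 are the mitochondrially encoded subunits, and the 31 mitochondrial entries of the count table were listed at 0 reads in every library, so the mitochondrial partners of these nuclear genes were not followed. The factors that assemble the complexes formed 3 of these lists, whose difference from the subunit genes was not tested. With rapamycin 10 of 23 complex IV assembly genes were higher in the deletion and 13 were not called, beside 14.4% of all genes called higher, with a median log2 difference of 0.37. COX18 (0.77 ± 0.10), which inserts a subunit into the membrane, MSS51 (0.99 ± 0.14), a translational activator of COX1 mRNA, and COX17 (0.59 ± 0.09), a copper chaperone, had the smallest p, with edgeR adjusted p of 0.002 for COX18, 0.00225 for MSS51 and 0.0032 for COX17. MSS51 had 133 and 139 scaled CPM in deletion cells with rapamycin and 60.8 and 75.9 in wild type cells with rapamycin, against 146 and 125 in untreated deletion cells and 93.7 and 81.0 in untreated wild type cells. The deletion was the higher genotype in both conditions for MSS51.

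Of 12 complex II and III assembly genes 8 were higher in the deletion with rapamycin and 1 was lower, with a median of 0.45. The lower gene was SDH8, an assembly factor of complex II, at -0.53 ± 0.11 (edgeR adjusted p = 0.0124). CYC3, the heme lyase of cytochrome c, was higher by 0.80 ± 0.08 (edgeR adjusted p = 0.000966), CBP6 by 0.77 ± 0.13 (edgeR adjusted p = 0.00424) and CBP3 by 0.55 ± 0.07 (edgeR adjusted p = 0.00225). CBP3 and CBP6 act together in making cytochrome b. CYC3 had 256 and 258 scaled CPM in deletion cells with rapamycin and 145 and 151 in wild type cells with rapamycin, against 102 and 99.5 in untreated deletion cells and 66.4 and 64.2 in untreated wild type cells, so it rose with rapamycin in both genotypes and stood higher in the deletion. Its substrate CYC1 was lower in the deletion with rapamycin. Of 11 ATP synthase assembly genes 1 was higher and 10 were not called, no larger a share than the 14.4% of all genes, with a median of 0.18. The called gene was ATP11 (0.53 ± 0.10; edgeR adjusted p = 0.0066), a chaperone of the beta subunit. Untreated, 4 of 23 complex IV assembly genes and 3 of 12 complex II and III assembly genes were higher, with medians of 0.31 and 0.39, beside 4.88% of all genes. Of the 11 ATP synthase assembly genes edgeR called 0 in either direction untreated, with 2 higher at an unadjusted p under 0.05 (ATP11 and ATP12), both of which DESeq2 called.

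Other lists moved less evenly between genotypes. Of 10 genes of pyruvate dehydrogenase and the early TCA cycle, 8 were higher with rapamycin in wild type (median 1.21), led by the citrate synthases CIT3 (3.11 ± 0.16) and CIT1 (3.39 ± 0.29). With rapamycin present, 1 of these 10 was higher in the deletion, IDH1 of isocitrate dehydrogenase (0.57 ± 0.17; edgeR adjusted p = 0.0392), and the median of the list was -0.07. The early cycle thus had a median near 0 in the deletion with rapamycin, where the late cycle had -0.48. Of 5 ADP/ATP and phosphate carriers, which supply the ATP synthase with its substrates, 2 were lower in the deletion with rapamycin and 0 higher, and the list's median was 0.0018. Those called were the phosphate carrier MIR1 (-0.65 ± 0.11; edgeR adjusted p = 0.00406) and the major ADP/ATP carrier PET9 (-0.53 ± 0.13; edgeR adjusted p = 0.0197). The phosphate carrier PIC2 had 0.83 ± 0.31 (edgeR adjusted p = 0.0793) and was called higher by DESeq2 (adjusted p = 0.014), and the ADP/ATP carriers AAC3 and AAC1 had 0.10 ± 0.17 and 0.00 ± 0.11. Medians in that comparison were 0.07 for 11 ubiquinone synthesis genes, 0.05 for 8 heme synthesis genes, 0.15 for 8 translational activators and 0.14 for 3 other electron donors.

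The activators of these genes were read as RNA. HAP4, the regulated subunit of the Hap complex, had 316 and 439 scaled CPM in deletion cells with rapamycin and 291 and 259 in wild type cells with rapamycin, against 157 and 173 in untreated deletion cells and 228 and 227 in untreated wild type cells. Its difference with rapamycin was 0.46 ± 0.15 (edgeR adjusted p = 0.06), and DESeq2 called HAP4 higher there (adjusted p = 0.0188). The HAP4 interaction was 0.92 ± 0.22 (edgeR adjusted p = 0.0328), positive where the subunit genes' called interactions were negative. Those subunit calls moved with single libraries, as given above. HAP4 was the 1 of 9 listed factors with an interaction called by edgeR, and DESeq2 called 2, both positive. Over all genes tested edgeR called 7.04% positive. In the untreated deletion edgeR called 2 of the 9 factors lower and 0 higher. HAP5 stood above wild type in the deletion with rapamycin by 0.44 ± 0.11 (edgeR adjusted p = 0.0179) and HAP3 lower by -0.39 ± 0.10 (edgeR adjusted p = 0.0275). In the authors' deposited table for rapamycin HAP4, MIR1, PET9 and 6 of the 10 early genes (PDB1, IDH1, PDA1, IDH2, ACO1 and CIT1) are listed. Of the 46 assembly genes 0 are listed, and of all genes tested 10.4%.

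**Figure D5:**
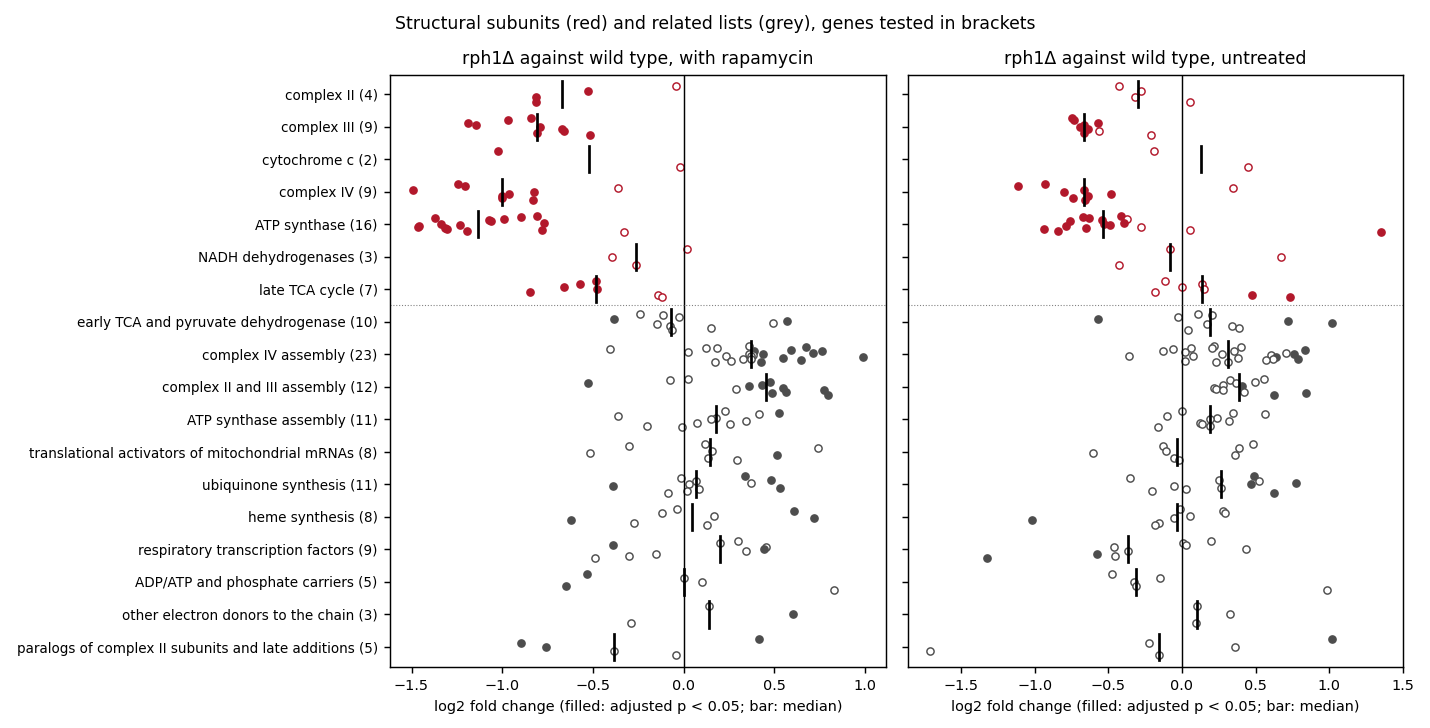
Log2 fold change of the rph1 deletion against wild type with rapamycin (left) and untreated (right) for each gene of the 7 classes (red) and of 11 related lists (grey). Filled points have an edgeR adjusted p under 0.05 and black bars are medians. With rapamycin the medians are -1.13 for the ATP synthase and -0.999 for complex IV, and 0.37 for complex IV assembly and 0.45 for complex II and III assembly.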

How the data were processed

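RNA-seq of total RNA was available for 8 libraries in 4 groups of 2. The deposited values are raw read counts per annotated entry. The submitters' processing notes name Trimmomatic 0.38, STAR 2.5.3a, featureCounts 1.6.3, DESeq2 1.24.0, Bowtie2 2.3.4.3, MACS2 2.2.1 and the build sacCer3, without roles, and the use of strand is not given in the sources used here. Per the file headers, each FLAG-Rph1 list (1 per condition) gives a gene's fold enrichment. The control behind that ratio is not given in the sources used here. RNA polymerase II ChIP files were not used here.

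Of the 7036 entries, 5956 matched the R64 gene table, 173 took a symbol from the lists and 907 kept their systematic name. The gene span in that table, introns included, gave the levels per kilobase. Counts were fitted with edgeR 4.0.16 in R 4.3.3 (filterByExpr at a minimum count of 10, leaving 6169 genes; TMM scaling; quasi-likelihood with 1 mean per group over all 8 libraries). P-values were adjusted by Benjamini-Hochberg over all genes tested and called under 0.05. SE was taken from the F statistic of the comparison. Because libraries are scaled to one another, these values carry nothing on the amount of RNA per cell. The fit was tested on simulated counts. Total counts ran from 18037199 to 24769193 per library, and every member had at least 63 reads in each.

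The members, classes and related lists were chosen with earlier results of these data known. Any of the 50 members could be named. Full statistics went to those with the smallest or largest p of a class, to paralog pairs, to members called against the majority and to members of a FLAG-Rph1 list. From each related list up to 3 genes were taken by smallest p. Alternatives were RLE and upper-quartile scaling, TMM without the 138 ribosomal protein genes, DESeq2 1.42.0, no low-count filter, only the 4 libraries compared, the replicate number as a block, and each library left out in turn. For the FLAG-Rph1 lists they were the list's median and values shared with no other gene. One result of a related list is not reported here.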

Additional observations from a re-analysis of the deposited data

Results flagged for a closer look

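The rapamycin change differed between genotypes for 19 of the 50 genes by a test of the difference itself, the interaction in edgeR's quasi-likelihood fit at a Benjamini-Hochberg adjusted p under 0.05. Each value below is the log2 rapamycin change in the rph1 deletion minus that in wild type, and all 19 are negative, beside 6.08% of all genes tested called negative. In the ATP synthase class the values were -1.68 for STF1, -1.19 for ATP18, -0.83 for TIM11, -0.81 for ATP15, -0.74 for ATP3, -0.74 for ATP16, -0.67 for ATP17, -0.66 for ATP19 and -0.62 for ATP4. Late TCA cycle genes had -0.85 (LSC2), -0.71 (KGD2), -0.66 (LPD1), -0.63 (FUM1) and -0.62 (LSC1). The remaining values were -1.07 for NDE2, -0.87 for SDH4, -0.84 for CYC1, -0.83 for COX6 and -0.62 for QCR6. Their levels fell into different orders. For STF1, LSC1 and LSC2 the untreated deletion stood above untreated wild type and the rapamycin groups differed by -0.33, -0.14 and -0.12 on the log2 scale. For COX6, ATP3 and ATP15 the deletion was lower in both conditions, by -1.49, -1.37 and -1.34 with rapamycin and by -0.66, -0.63 and -0.53 untreated. For SDH4, TIM11 and CYC1 the deletion was lower with rapamycin, by -0.81, -0.78 and -1.02, beside 0.06, 0.05 and -0.19 untreated. The cause was not tested.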

How the results depend on the processing

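All 15 alternatives kept the direction of each of the 185 called results of single genes; 34 changes of direction fell on results that were not called. The count of called genes kept within 1.5 times of its value for rapamycin in either genotype (41 to 46 in the deletion and 49 in wild type with 1 library left out) and for the deletion with rapamycin (33 to 43). Untreated, the count of called genes was 30, and 1 in a fit of the 4 libraries compared, with 1 lower and 0 higher. With 1 library left out it lay between 3 and 26, with 3 to 24 lower and 0 to 4 higher, and the interaction count between 0 and 25. The 4-library fit was not run for the interaction. With a library left out, the lone library of a group is assumed to vary like the others. The cause of these changes in the counts was not tested. In the FLAG-Rph1 lists 7 genes with rapamycin and 0 untreated reached the list's median. Replicate numbers gave deviations that correlated by 0.19 to 0.56 between groups. What libraries of the same number share is not in the labels, and each comparison has only 2 numbered pairs. With the replicate block the counts of called genes were 46 for rapamycin in the deletion and 49 in wild type, 41 for the deletion with rapamycin, 33 untreated and 27 for the interaction; 11 results were newly called.

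For the deletion with rapamycin, SDH1 changed to 0.0181 with TMM scaling without ribosomal protein genes, and CYC7 to 0.00156 with RLE scaling, 0.0342 with TMM without ribosomal protein genes, 0.0045 with DESeq2 and 0.0401 with the replicate block. With 1 library left out SDH1 lay between -0.27 and 0.30 and CYC7 between -0.31 and 0.40. NDE1 lay between -0.36 and 0.0574 for rapamycin in the deletion. In the untreated comparison the ranges were -0.0885 to 0.21 for SDH4, -0.0607 to 0.16 for TIM11, -0.30 to 0.11 for NDE1, -0.41 to 0.0884 for MDH1, -0.22 to 1.497 for CYC7, -0.0270 to 0.84 for COX5B and -0.10 to 0.11 for LPD1. For the interaction they were -0.14 to 0.0722 for QCR9, -0.0319 to 0.34 for NDI1, -0.10 to 0.32 for NDE1, -0.20 to 0.16 for COX7, -0.31 to 0.12 for QCR8, -1.52 to 0.20 for CYC7 and -0.33 to 0.12 for QCR10. The cause was not tested.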

Other observations

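The nuclear genes of complex II have paralogs that were read as a related list. SHH4, the paralog of SDH4, rose with rapamycin by 1.29 ± 0.12 in the deletion and 2.41 ± 0.12 in wild type on the log2 scale (SE, n = 2 per group), and stood lower in the deletion with rapamycin by -0.76 ± 0.11 (edgeR adjusted p = 0.00269). SHH3, the paralog of SDH3, was lower there by -0.90 ± 0.14 (edgeR adjusted p = 0.0038). YJL045W, the paralog of SDH1, went the other way. It was higher in the deletion by 0.42 ± 0.13 with rapamycin (edgeR adjusted p = 0.0461) and by 1.019 ± 0.14 untreated (edgeR adjusted p = 0.00774). DESeq2 called YJL045W untreated (adjusted p = 2.76e-05) and did not call it with rapamycin (adjusted p = 0.0574). YJL045W had 11.98 and 13.4 scaled CPM in deletion cells with rapamycin, 9.03 and 9.96 in wild type cells with rapamycin, 10.3 and 10.1 in untreated deletion cells and 5.07 and 5.01 in untreated wild type cells. The groups did not overlap between genotypes in either condition.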
